A study of Mus musculus with 18 samples.

Results

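The genes described here are 10 regulators of meiotic arrest and of maturation-promoting factor (MPF), the kinase complex that drives an oocyte into metaphase. They were chosen by name, as Mos, Ccnb1, Ccnb2, Ccnb3, Cdk1, Fbxo43, Wee2, Cdc25b, Gpr3 and Pde3a, and all 10 were found among the 28252 genes of the deposited TPM table and the 53715 genes of the count table. TPM is the read count per unit of gene length, scaled so that each library sums to 1000000, and it allows levels of different genes to be compared. Bulk RNA sequencing of oocytes of C57Bl/6j x CBA/J mice gave 18 libraries, 3 in each of 6 groups. The oocytes came from primordial follicles or from primary follicles, or were at metaphase of the second meiotic division (MII), and each of these stages had a group labelled sham and a group labelled NTY. The sources used here do not explain NTY and give neither the age of the mice nor whether replicates came from separate animals, so the p-values measure only the spread between these libraries. The library codes of primary NTY replicates 2 and 3 may name the same material, so that group may hold fewer than 3 separate samples. All 18 samples were marked as in vivo. The primordial and primary libraries were taken to be those made from cells cut out of tissue by laser and pooled by stage, amplified from very little RNA and enriched for coding transcripts by capture. The MII libraries were taken to be those of collected oocytes made by Smart-seq II, so that between these 2 kinds of library a difference of stage cannot be told apart from a difference of method.

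An oocyte enters meiosis in the fetal ovary, stops in prophase of the first division and may stay there for most of the reproductive life of the animal. GPR3, a receptor that is active without an added ligand, keeps the stimulatory G protein and adenylyl cyclase of the oocyte on, and PDE3A is the phosphodiesterase that breaks down the resulting cyclic AMP. High cyclic AMP keeps protein kinase A active, which favours WEE2, a kinase that inhibits CDK1, and holds back CDC25B, the phosphatase that removes the inhibitory phosphates. CDK1 bound to a B-type cyclin is MPF. The maturing oocyte stops again at MII, where MOS, through the MAP kinase cascade, and FBXO43 (also called EMI2), an inhibitor of the anaphase-promoting complex, keep cyclin B from being destroyed until fertilization.

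Many of these messengers are stored in the growing oocyte and are translated only at maturation, when sequences near their 3′ end direct the lengthening of the poly(A) tail. These are the polyadenylation hexamer and, upstream of it or overlapping it, the cytoplasmic polyadenylation element that binds the protein CPEB. The window around the last hexamer is shown for the 3 messengers that were most abundant at MII and for Cdc25b, the member with the largest difference between NTY and sham MII oocytes. It was read 5′ to 3′ on the strand of the gene from GRCm38 with GENCODE M21 transcripts, and capitals mark the hexamer (AATAAA or ATTAAA) and the cytoplasmic element (TTTTAT or TTTTAAT).
Mos, chr4:3870671-3870700, minus strand: ccactagggcatatttttaggaAATAAAgt
Ccnb1, chr13:100778666-100778695, minus strand: aatatggagactttatgttgctAATAAAca
Wee2, chr6:40466766-40466795, plus strand: taTTTTAATccagatcattgtaAATAAAga
Cdc25b, chr2:131198453-131198482, plus strand: cctctgttgggggccttggttcAATAAAgc

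Each window lies in the 3′ UTR in the last exon of its gene, and only that of Wee2 holds both motifs. In the last 100 bases of the annotated 3′ UTR, on the transcript strand, a hexamer was found in 9 of the 10 genes, all but Pde3a, against 78.6% of 19365 protein-coding genes. A cytoplasmic element was found in Wee2, with 2 matches, and in Ccnb3, with 1, against 17.9% of those genes. The letters searched for overlap other forms of the element that were not searched, and a match or its lack describes only this annotated window.

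The total count was 15149564 to 29205503 per microdissected library and 8652089 to 9978830 per MII library, so that 3 counts, the limit that a count of 0 allows, correspond to 0.103 to 0.198 CPM (counts scaled to a library total of 1000000) and to 0.301 to 0.347 CPM. Oocyte markers were checked with 13 genes. Their summed level was 10420 to 17321 TPM in MII libraries and 3.49 to 1966 TPM in microdissected libraries, where it was lowest in primordial NTY replicate 3, with 5 of 13 markers above 3 counts. In the microdissected libraries 14 granulosa markers summed to 380 to 3933 TPM and 6 stromal markers to 460 to 7486 TPM. In MII libraries the granulosa markers summed to 54.6 to 123 TPM in sham and 81.0 to 118 TPM in NTY. Of these 14 markers 6 to 8 were above 3 counts in an MII sham library and 5 to 7 in an MII NTY library. Foxl2, Amhr2, Wt1 and Fst were at 0 and Amh at no more than 2 counts in every MII library. The stromal markers summed there to 0.158 to 1.29 TPM in sham and to 0 in NTY. Of the 10 genes, 2 to 9 were above 3 counts in a microdissected library, 10 in each MII sham library and 9 in each MII NTY library.

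**Figure D1:**
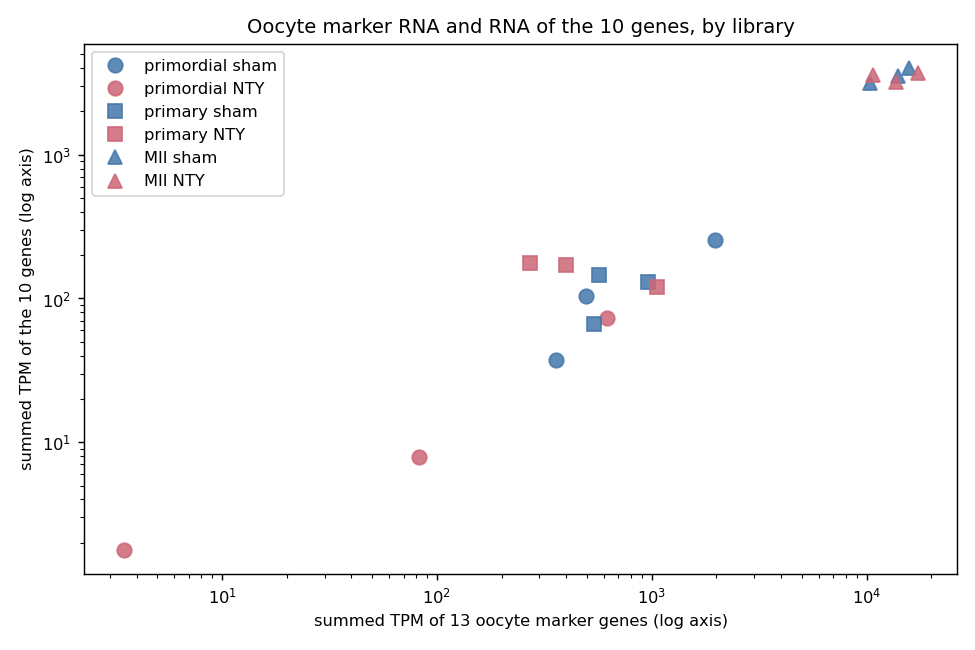
Summed TPM of the 10 genes (vertical, log axis) against the summed TPM of 13 oocyte marker genes (horizontal, log axis), with 1 point per library, circles for primordial, squares for primary and triangles for MII libraries, blue for sham and red for NTY. The 6 MII libraries lie at 3179 to 4009 TPM of the 10 genes, and the lowest point is primordial NTY replicate 3, at 1.78 TPM.

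The MII oocytes held large amounts of the RNA of most of these regulators, and the order of the levels put the cyclin, the MAP kinase activator and the inhibitory kinase first. Over the 6 MII libraries Ccnb1, which encodes cyclin B1, was at 924 ± 203 TPM (SD, n = 6) and ranked 113 of 28252 genes. Mos followed at 904 ± 368 TPM and Wee2 at 787 ± 138 TPM. In TPM Ccnb1 and Mos did not differ beyond their spread, since Ccnb1 was the higher in 2 of 6 libraries, and Mos lay above Wee2 in 4 of 6. In CPM, which is not divided by gene length, Mos lay below both Ccnb1 and Wee2 in all 6 libraries. Ccnb2, which encodes the second main B-type cyclin, was at 418 ± 91.0 TPM, below Wee2 in every library without overlap of their ranges.

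Fbxo43 was at 305 ± 59.4 TPM and lay below Ccnb2 in 5 of 6 libraries. Gpr3, at 114 ± 37.7 TPM, and Pde3a, at 44.5 ± 10.6 TPM, each lay below the gene before it in every library without overlap. The order of Gpr3 and Pde3a, and that of Ccnb2 and Fbxo43, holds per gene length only. In CPM Pde3a lay above Gpr3, and Fbxo43 above Ccnb2, in all 6 libraries. Gpr3 overlaps Cd164l2, which lies on the opposite strand and had 2011 to 4945 counts at MII, and counting by strand is not stated, so the level of Gpr3 at MII is uncertain. Cdk1, the catalytic subunit of MPF, was at 30.2 ± 7.27 TPM and lay below Pde3a in 5 of 6. Ccnb3, a cyclin needed for the metaphase to anaphase step of the first division, was at 7.49 ± 5.70 TPM, and Cdc25b at 5.13 ± 5.96 TPM. These last 2 overlapped, and the SD of Cdc25b spans a sham and an NTY group that differed.

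The 2 partners of MPF therefore had very unequal RNA levels. The ratio of Ccnb1 to Cdk1 in TPM was 22.7, 48.6 and 50.7 in the sham and 24.1, 17.1 and 36.4 in the NTY MII libraries (replicates 1 to 3). In the microdissected libraries Cdk1 lay above Ccnb1 in 10 of 12, and the exceptions were primary sham replicate 1 and primary NTY replicate 3. In 1 of the 10, primordial NTY replicate 1, both genes were at or under 3 counts, so it shows no order. RNA levels in TPM say nothing of protein amounts.

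**Figure D2:**
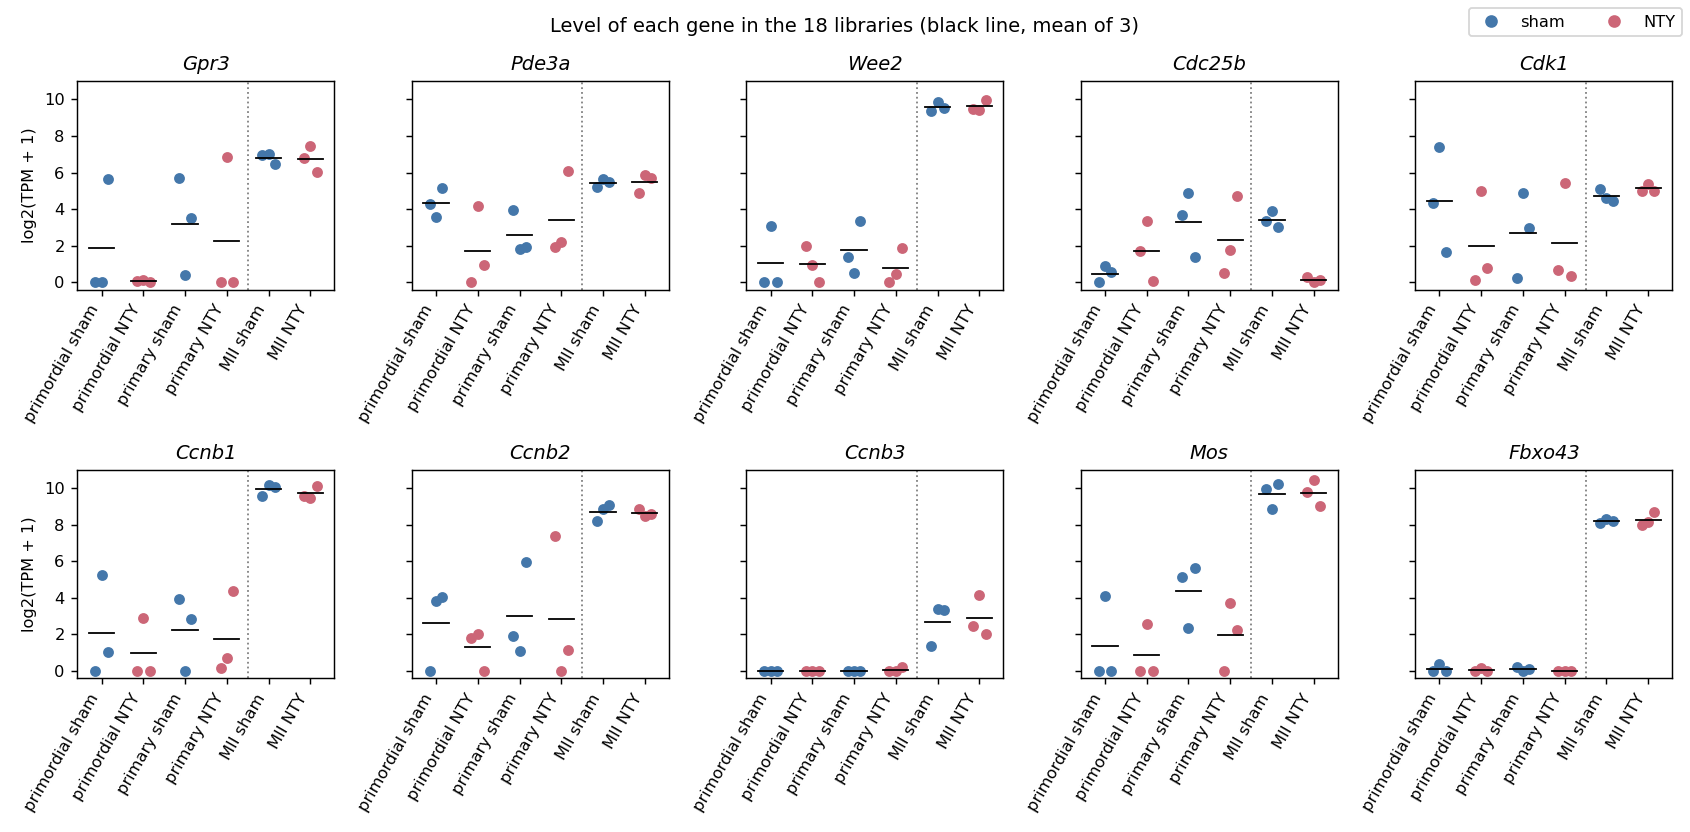
Level of each of the 10 genes as log2(TPM + 1) in the 18 libraries, in 1 panel per gene, with blue points for sham, red points for NTY, a black line at the mean of 3 libraries, and a dotted line between the microdissected libraries and the MII libraries, which were made by another method. MII points of Wee2, Ccnb1, Ccnb2, Ccnb3, Mos and Fbxo43 all lie above the points to the left, and Cdc25b is near 0 in MII NTY.

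Within families the same genes led in both treatments. Ccnb1 made up 69.7% ± 3.36 of the summed TPM of Ccnb1, Ccnb2 and Ccnb3 in sham MII oocytes and 67.0% ± 6.46 in NTY (SD, n = 3 each). Wee2 made up 88.3% ± 2.04 and 88.7% ± 5.62 of the summed TPM of the CDK1-inhibiting kinases Wee2, Pkmyt1 and Wee1. Wee1, the kinase of dividing somatic cells, was at no more than 1.79 TPM in any MII library, whereas Pkmyt1, a membrane-bound relative, was at 58.4 to 142 TPM. Among the 3 CDC25 phosphatases Cdc25a was the highest in every MII library, at 12.9 to 24.2 TPM. The share of Cdc25b was 34.8% ± 7.87 in sham, from 26.1% to 41.3%, and 0.383% ± 0.346 in NTY, so these ranges did not overlap. Cdc25c was at 0 to 2.05 TPM in sham and 0 to 10.6 TPM in NTY, which overlapped.

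**Figure D3:**
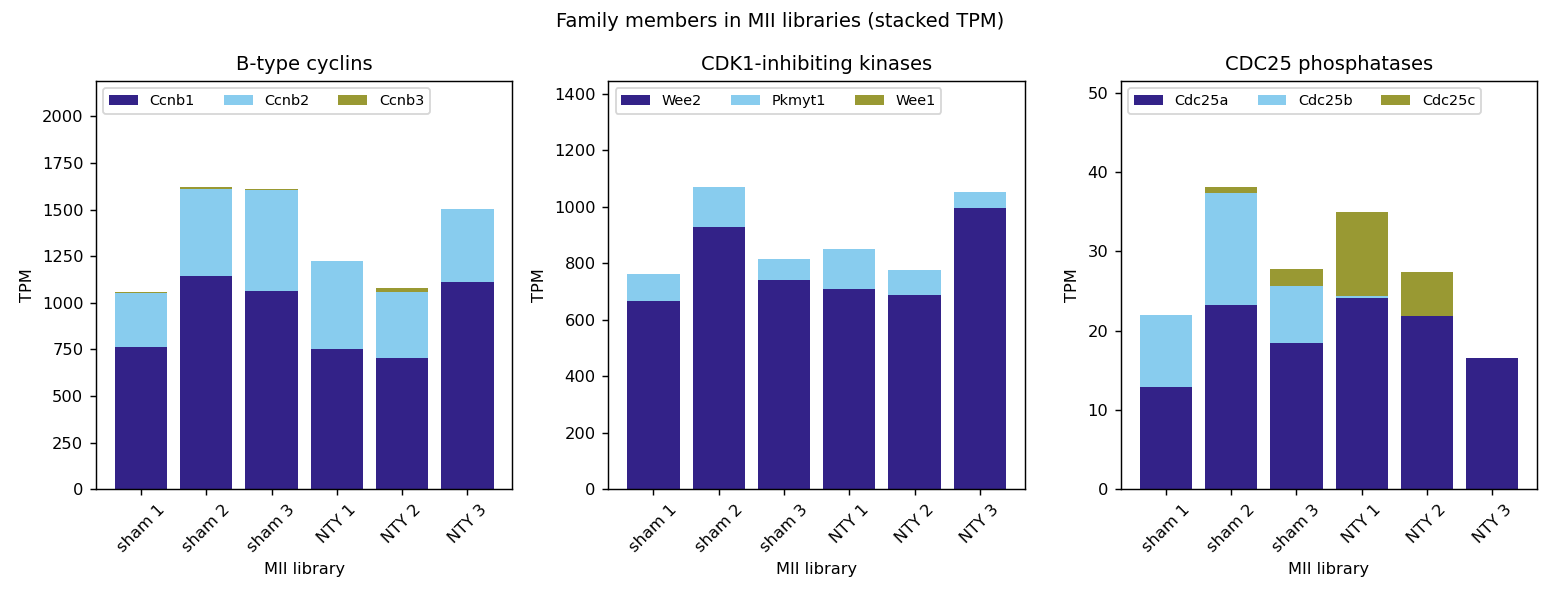
Stacked TPM of the B-type cyclins, of the CDK1-inhibiting kinases and of the CDC25 phosphatases in each of the 6 MII libraries, with 1 bar per library and axes that start at 0 and differ between panels. The light blue Cdc25b segment is 7.24 to 14.2 TPM in the sham bars and no more than 0.235 TPM in the NTY bars.

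Set beside the microdissected libraries, without a test, every MII library lay above every microdissected library for 6 of the 10 genes, namely Mos, Ccnb1, Ccnb2, Ccnb3, Fbxo43 and Wee2, against 26.7% of 13110 genes with a mean MII level of at least 1 TPM. Fbxo43 was the clearest of them. It was at 249 to 415 TPM in MII libraries and at no more than 0.291 TPM in any microdissected library, where its highest count was 10. Wee2 was at 667 to 994 TPM at MII and at no more than 9.11 TPM in microdissected libraries. For Cdk1 the ranges overlapped widely, because 2 microdissected libraries lay above every MII library, up to 168 TPM in primordial sham replicate 2. Pde3a reached 67.3 TPM in primary NTY replicate 3, above all MII libraries, and Gpr3 reached 114 TPM in primary NTY replicate 2, within the MII range.

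In bulk libraries fewer cells of a type and less RNA per cell cannot be told apart. Each of the 10 genes was at or under 3 counts in at least 1 microdissected library, and replicates of a group often ranged from 0 to above 100 counts. In primordial sham oocytes 5 of the 7 members that reached 100 counts in some library were at or under 3 counts in another, namely Mos, Ccnb1, Ccnb2, Wee2 and Gpr3. Among all genes that reached 100 counts in that group the share was 51.4%. The member counts were 1 of 8 in primary sham (29% of genes), 4 of 4 in primordial NTY (53.6%) and 3 of 7 in primary NTY (49.2%). In the MII groups no member did so, against 0.432% of genes in sham and 7.98% in NTY.

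The arrest signals come first. The TPM of Gpr3 was 0, 0 and 48.9 in primordial sham, 50.2, 0.339 and 10.7 in primary sham, 0.0546, 0.103 and 0 in primordial NTY, and 0, 114 and 0 in primary NTY (replicates 1 to 3). Thus 1 library carried the level of its group in primordial sham and in primary NTY, with 861 and 2225 counts, and only the primary sham group had counts above 3 in all libraries. The overlapping Cd164l2 was at no more than 53 counts in any microdissected library. The TPM of Pde3a was 18.6, 10.8 and 34.9 in primordial sham, 14.7, 2.58 and 2.76 in primary sham, 0, 17.1 and 0.966 in primordial NTY, and 2.78, 3.53 and 67.3 in primary NTY. Pde3a was above 3 counts in 11 of 12 libraries, and all its groups overlapped. It also overlaps Gm28523, Gm10400 and Gm43958, and the first of these is antisense to it.

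The genes of the CDK1 switch were also uneven. The TPM of Cdc25b was 0, 0.850 and 0.458 in primordial sham, 11.8, 29.0 and 1.60 in primary sham, 2.28, 9.03 and 0.0680 in primordial NTY, and 0.405, 2.44 and 25.2 in primary NTY. Every primary sham library lay above every primordial sham library, as was the case for 14.5% of 10522 genes. The NTY groups overlapped with each other and with sham of the same stage. In primary NTY replicate 3 Spef1, which overlaps Cdc25b on the opposite strand, had 1710 counts beside 753 for Cdc25b. That value of Cdc25b is therefore uncertain. In the other microdissected libraries Spef1 was at no more than 52 counts. Wee2 was above 3 counts in 8 of 12 libraries, with a median of 0.682 TPM. The TPM of Cdk1 was 18.9, 168 and 2.14 in primordial sham, 0.176, 28.8 and 6.86 in primary sham, 0.0907, 31.2 and 0.745 in primordial NTY, and 0.586, 42.8 and 0.278 in primary NTY. In each of the 4 groups replicate 2 was the highest for Cdk1, though same-numbered libraries did not deviate together over all genes. Proliferation markers (Mki67, Top2a, Pcna and Mcm2) summed to 11.1 to 439 TPM in these libraries. They summed to 145 to 386 TPM in MII sham and 214 to 225 TPM in MII NTY libraries, so they do not mark somatic cells alone. Their part in the level of Cdk1 was not tested.

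Ccnb1 was at 0, 37.3 and 1.07 TPM in primordial sham, 14.2, 0 and 6.14 in primary sham, 0, 6.48 and 0 in primordial NTY, and 0.119, 0.630 and 19.6 in primary NTY. Primary NTY was the 1 group with Ccnb1 above 3 counts in all libraries, at 4, 19 and 664 counts, and the groups overlapped. Ccnb2 was above 3 counts in 9 of 12 libraries and reached 168 TPM in primary NTY replicate 1. Ccnb3 was above 3 counts in 1 library, primary NTY replicate 3, with 6 counts. Mos, at 0, 16.1 and 0 TPM in primordial sham, was detected in all 3 primary sham libraries at 33.9, 4.02 and 48.1 TPM. In NTY it was at 0, 5.06 and 0 TPM in primordial and 0, 12.3 and 3.70 TPM in primary libraries, and the groups overlapped here too.

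NTY was compared with sham at MII to ask whether the levels of these RNAs differed in mature oocytes. Cdc25b was at 143, 186 and 88 counts in the 3 sham libraries, or 14.9, 18.6 and 9.89 CPM, and at 3, 0 and 1 counts in the 3 NTY libraries, or 0.344, 0 and 0.116 CPM. All NTY libraries thus lay at or below 3 counts, and the lowest sham library was far above the highest NTY library. Over the pooled counts, 417 in sham and 4 in NTY, the ratio of sham to NTY per total count was 97.9 (exact 95% interval 38.0 to 361, counting error only).

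The log2 fold change of Cdc25b in edgeR was -6.42 (SE 1.20), with the second smallest p of the 12209 genes tested and an edgeR adjusted p of 0.877. It therefore did not pass the threshold of 0.05. DESeq2 gave -6.52 with an adjusted p of 4.7e-05 and called it, as it did 0.238% of genes, so the call rests on the tool. An exact two-sided permutation test on CPM gave p = 0.1, the smallest value that 3 libraries against 3 allow. Cdc25b was 1 of 6 genes, of 7272 with at least 50 counts in every sham library (0.0825%), that were at or under 3 counts in every NTY library, and 0 of 6411 genes showed the reverse. The others were Clpb, D3Ertd751e, Epha10, Gm14812 and Serinc4, which are named after their values were seen.

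Several measures moved with this difference. Fewer genes had any count in the NTY libraries (12782 to 13608) than in the sham libraries (15442 to 18239), without overlap, at totals of 8652089 to 9337884 and 8898672 to 9978830 counts. The 6 stromal markers were at 0 in NTY and at 0.158 to 1.29 TPM in sham, while the granulosa markers overlapped between the groups. Of the 6 stromal markers 1, 3 and 0 were above 3 counts in sham replicates 1 to 3, so this difference lies near the limit of detection. Spef1, which overlaps Cdc25b on the opposite strand, was at 12, 20 and 8 counts in sham and 3, 4 and 0 in NTY. The part of these in the level of Cdc25b was not tested.

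The other 9 members gave no difference between NTY and sham that exceeded the spread at MII. Their log2 fold changes ran from -0.13 for Ccnb1 to 0.34 for Cdk1, with SEs of 0.28 to 0.81, and each had an edgeR adjusted p of 0.9998. Ccnb1 was at 764, 1146 and 1063 TPM in sham and 752, 706 and 1114 TPM in NTY, which overlapped. Mos was at 986, 455 and 1202 TPM in sham and 878, 1383 and 517 TPM in NTY, so 1 library in each group was low. Fbxo43 was at 269, 321 and 297 TPM in sham and 249, 279 and 415 TPM in NTY. Of the 10 members 0 were called by edgeR, against 0% of all genes, and 1, Cdc25b, had an unadjusted p under 0.05, against 2.29% of genes. It was also the 1 member of 10 whose groups did not overlap, against 8.31% of genes (6% with NTY below sham). The median log2 fold change was 0.04 for the members and 0.00 for all genes.

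In primordial follicles NTY was compared with sham for 8 members, since Ccnb3 and Fbxo43 did not pass the filter on low counts. The 2 filtered genes were at no more than 10 counts in any library. Of the 8 members 7 had log2 fold changes below 0, from -8.26 (SE 4.18) for Gpr3 to 2.86 (SE 3.02) for Cdc25b, with a median of -2.29 against 0.12 over all genes. None passed the edgeR test (lowest adjusted p 0.470, 0.0095% of 10522 genes called), 0 had an unadjusted p under 0.05 (10.9% of genes), 0 were called by DESeq2 (11.5%), and 0 had groups without overlap (7.96%). The change of Gpr3 rested on primordial sham replicate 3, without which it was 3.10. The fitted value of a gene with libraries at 0 also depends on the prior count and is not a bound. Beside these values, the oocyte markers summed to 358 to 1966 TPM in primordial sham and to 3.49 to 618 TPM in primordial NTY, and the granulosa markers to 380 to 2223 and 2022 to 3933 TPM. Their part in the differences was not tested.

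In primary follicles the log2 fold changes of the 8 members ran from -1.72 (SE 2.98) for Mos to 2.39 (SE 2.72) for Pde3a. The median was 0.61 against -0.10 over all genes, and 5 lay above 0. Every edgeR adjusted p was 1, and 0% of genes were called, with 8.15% at an unadjusted p under 0.05, none of them a member. DESeq2 called 6.63% of genes and no member. Groups overlapped for all 8 members, against 15.1% of genes without overlap. Pde3a was highest in primary NTY replicate 3 and Ccnb2 in primary NTY replicate 1, and without the latter library the log2 fold change of Ccnb2 turned from 1.92 to -4.68. Without primary NTY replicate 2 that of Gpr3 turned from 1.77 to -11.15. Oocyte markers summed to 538 to 957 TPM in primary sham and 271 to 1062 TPM in primary NTY.

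**Figure D4:**
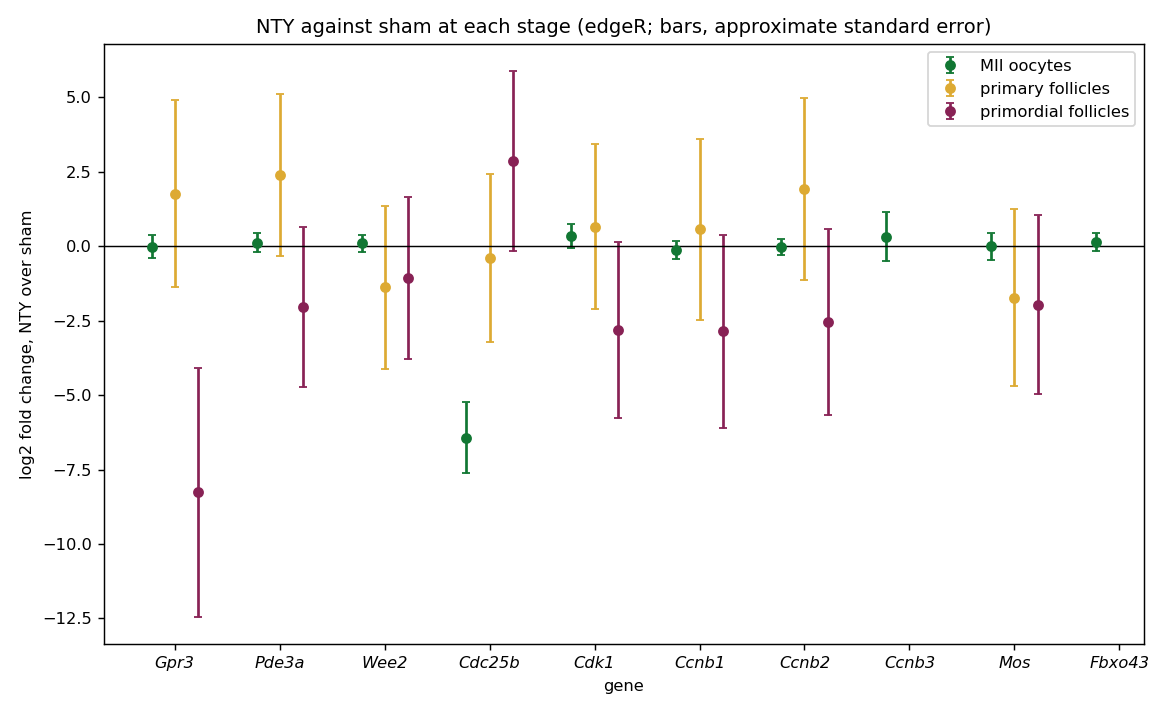
Log2 fold change of NTY over sham from edgeR for each gene (horizontal), with green points for MII, yellow for primary and purple for primordial libraries, and bars for the approximate standard error. Ccnb3 and Fbxo43 were tested at MII only, and at MII every point but that of Cdc25b (-6.42) lies between -0.13 and 0.34.

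Primary follicles were compared with primordial follicles within each treatment, to describe the RNA at the first step of follicle growth. These comparisons share their libraries with the comparisons of NTY and sham. In sham, Cdc25b had the largest log2 fold change of the 8 members, 4.92 (SE 3.32), and an edgeR adjusted p of 0.787. It was the 1 member with no overlap, against 15.6% of genes. Proliferation markers summed to 104 to 128 TPM in primordial and 191 to 194 TPM in primary sham, granulosa markers to 380 to 2223 and 1218 to 2949 TPM, and 6147 to 9852 and 10565 to 13755 genes had a count. Their part in the level of Cdc25b was not tested. The other members ran down to -2.39 for Cdk1, with a median over the 8 of 0.03 against 0.29 for all genes. By edgeR 0 members were called (0.0095% of genes), 0 had an unadjusted p under 0.05 (9.28%), and DESeq2 called 0 (7.31%).

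In NTY 7 of 8 log2 fold changes were above 0, from -0.09 for Wee2 to 9.87 (SE 4.45) for Gpr3, with a median of 2.15 against 0.08 over all genes. Oocyte markers summed to 3.49 to 618 TPM (median 82.3) in primordial NTY and 271 to 1062 TPM (median 401) in primary NTY, and their part in these values was not tested. Gpr3 had an unadjusted p of 0.0317 by edgeR and an adjusted p of 0.458, and was the 1 member under 0.05 unadjusted, against 9.97% of genes. No member was called by edgeR, against 0% of genes, whereas DESeq2 called Gpr3 (adjusted p = 0.0139), as it did 10.7% of genes. The value rested on primary NTY replicate 2, without which it was -3.11. All 8 members overlapped between the stages, against 7.12% of genes without overlap.

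The difference of the NTY effect between primary and primordial follicles was tested as an interaction. It ran from -3.26 (SE 4.07) for Cdc25b to 10.03 (SE 5.09) for Gpr3 on the log2 scale, with a median of 3.45 against -0.56 over all genes. By edgeR 0 of 8 members were called, with a lowest adjusted p of 0.439, against 0.0095% of genes. No member had an unadjusted p under 0.05 (11.8% of genes) and DESeq2 called none (11.6%). The SEs were 3.81 to 5.09.

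The other genes of the pathway were followed with a list of 52, of which 47 were tested in the microdissected and 45 in the MII libraries. None was called by edgeR in any of the 6 comparisons. Unadjusted p-values under 0.05 were found for 1 gene at MII and for 2 or 3 genes in each of the other comparisons, and DESeq2 called 0 at MII and 2 to 4 in the others. Over all genes the shares were 2.29% at MII and 8.15% to 11.8% elsewhere for an unadjusted p, and 0.238% and 6.63% to 11.6% for DESeq2, so the counts of the list were near these shares or below them. At MII the smallest p was that of Fbxo5, which encodes EMI1, a relative of the FBXO43 protein that also inhibits the anaphase-promoting complex. Its lowest, median and highest values were 77.2, 106 and 124 TPM in sham and 43.1, 43.3 and 68.8 TPM in NTY. These did not overlap, with a log2 fold change of -1.001 (SE 0.36), an unadjusted p of 0.0227 and an edgeR adjusted p of 0.9998. Prkacb, a catalytic subunit of protein kinase A, Cdk2 and Rps6ka1, a kinase downstream of MAP kinase, also did not overlap and were lower in NTY (-2.33, -0.95 and -3.28), with unadjusted p-values of 0.0579, 0.170 and 0.0972 by edgeR. These 4 of 45 tested genes stand beside 6% of all genes without overlap and with NTY below sham, so the share is near that of all genes.

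By arm, the partners and modifiers of CDK1 had a median log2 fold change of -0.06 at MII (11 of 13 tested), the cyclic AMP arm 0.11 (11 of 15), the MAP kinase arm -0.05 (6 of 7), the anaphase-promoting complex arm 0.23 (11 of 11) and the arm that inhibits the phosphatase PP2A 0.06 (6 of 6). In primordial follicles NTY against sham gave an unadjusted p under 0.05 for Pde4d (-15.54), another cyclic AMP phosphodiesterase, and for Cdc14b (9.70) and Map2k2 (7.41), that is for 1 lower and 2 higher. Pde4d was at up to 211 TPM in 1 primordial sham library and at 0 in all primordial NTY libraries. Cdc14b was above 3 counts in 1 of 3 primordial NTY libraries, at 31.4 TPM, and in 0 of 3 primordial sham libraries. In primary follicles NTY against sham gave such a p for Prkar1b (-8.67), Cks1b (-9.88) and Rps6ka2 (-10.82). All were lower, as were 7.43% of all genes at this p, against 0.722% that were higher. DESeq2 called each of these 6 genes, beside 11.5% of all genes in primordial and 6.63% in primary follicles, and edgeR adjusted p-values were 0.405 to 0.584. Prkar1b and Rps6ka2 were at 0 in all primary NTY libraries, so these fitted values are no bounds. Prkar1b was above 3 counts in 1 of 3 primary sham libraries, at 7.79 TPM, so its value rests on that library.

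Several partners of the members were also abundant at MII. Cks2 and Cks1b, small proteins that bind CDK1, were at 2045 ± 479 and 1212 ± 229 TPM (SD, n = 6), above the mean of every member. Cdc20, the activator of the anaphase-promoting complex, was at 864 ± 229 TPM, Map2k1, the kinase between MOS and MAP kinase, at 642 ± 109 TPM, Plk1 at 370 ± 122 TPM and Ccna2 at 318 ± 59.7 TPM. Upstream of cyclic AMP, Gnas, which encodes the stimulatory G protein subunit, was at 7.56 to 24.8 TPM at MII and 409 to 1983 TPM in microdissected libraries. The latter were made by another method and also held granulosa and stromal markers. A change of Gnas within the oocyte cannot be read from these values. Npr2, the receptor on granulosa cells through which a cyclic GMP signal supports arrest, was at 0 in all MII libraries and at 0.126 to 759 TPM in microdissected libraries, in which granulosa markers were also found. Gpr12, a relative of Gpr3, was at no more than 0.233 TPM in any library.

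The likeness of patterns over the 18 libraries was described by Pearson's r of log2(TPM + 1) among 14002 genes with a mean of at least 1 TPM. The libraries fall into 2 sets by stage and method, which sets much of each r, so no p is given. Fbxo43 was most like Gm7437 and Piwil1 (r = 1.00 and 0.999), Ccnb1 most like Bub1b (0.989), Wee2 most like Rdh11 (0.993), Mos most like Gm44087 (0.983) and Ccnb3 most like Olfr456 (0.996). Gpr3 was most like Mrpl32 (0.991), Ccnb2 most like Slc10a3 (0.941), and Pde3a most like Tpd52l2 (0.887). Cdk1 was most like Rbm22 (0.811) and Cdc25b most like Surf1 (0.803). Among the members themselves Fbxo43 and Wee2 (0.976), Ccnb1 and Wee2 (0.963) and Mos and Ccnb1 (0.942) were alike, whereas Cdc25b had r of -0.15 to 0.13 with the other 9.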

How the data were processed

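RNA was sequenced from 18 libraries in 6 groups of 3, and groups and replicate numbers were taken from the labels. The submitters' processing notes name Trim Galore 0.4.1, TopHat2, featureCounts and mm10, with no settings, so strand use, the treatment of reads that match several genes and the gene lengths behind TPM are not given in the sources used here. The authors deposited whole-number counts per gene, not normalized, and TPM values for part of these genes. Ccnb1 has a pseudogene, Ccnb1-ps, whose own counts were at most 55, so reads that both share are uncertain. The paper that accompanies the data describes ovary culture and not this sequencing. The members and lists were chosen with earlier results of these data known.

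Counts were tested with the quasi-likelihood test of edgeR 4.0.16 (R 4.3.3, robust fit, TMM, filterByExpr by group) with Benjamini-Hochberg adjustment over all genes and a threshold of 0.05. The 12 microdissected libraries were fitted together (10522 genes) and the 6 MII libraries alone (12209 genes). MII libraries were not tested against the others. Standard errors are approximate, from the fold change and its F statistic. Alternatives were RLE normalization, DESeq2 1.42.0 without its Cook filter, any gene with a count, limma 3.58.1 on log2(TPM + 1) for genes with at least 1 TPM in at least 3 libraries, the replicate number as a block, leaving out each library, and summing primary NTY replicates 2 and 3, whose codes may name the same material. The fits were also run on simulated counts with a dispersion (spread between libraries) of 0.05. The common dispersion was 3.59 in the microdissected and 0.542 in the MII libraries. That run therefore does not show how the fits perform on these data. Levels, shares, motifs and the exact permutation test were computed in Python 3.11.15 (scipy 1.17.1, pandas 2.3.3, numpy 2.4.6). Genes named are the 10 members, the 52 pathway genes, marker genes and, for each member, up to 3 genes of like pattern. Genes that overlap a member, Ccnb1-ps and the other 5 genes that, like Cdc25b, were at or under 3 counts in NTY at MII fall outside this rule and were named after their values were seen.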

Additional observations from a re-analysis of the deposited data

How the results depend on the processing

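The result that turned on the tool was the call of Cdc25b at MII, where DESeq2 called 1 member (-6.52) and edgeR none. The edgeR adjusted p of Cdc25b was 0.470 to 1.00 on leaving out each library, and its log2 fold change was -7.66 to -5.84 there and -3.29 with limma on log2(TPM + 1). DESeq2 also called 1 member, Gpr3 (10.65), for primary against primordial follicles in NTY. Every other alternative run kept the number of members called at 0 in the 6 comparisons. The cause was not tested.

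As shares of CPM, which is not divided by gene length, Ccnb1 made up 86.0% of the B-type cyclins in sham and 84.1% in NTY, Wee2 92.0% in sham, and Cdc25b 20.6% in sham. The Wee2 share in NTY and the Cdc25b share in NTY moved by less than 1 SD.

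No log2 fold change that turned sign had passed the edgeR threshold. With RLE normalization and with DESeq2 the MII values became 0.022 for Mos, 0.0047 for Ccnb2 and 0.0091 and 0.0092 for Gpr3, Wee2 became 0.14 for primary against primordial follicles in NTY, and Wee2 became 0.034 and 0.035 for the interaction. With limma on log2(TPM + 1) NTY against sham in primary follicles became -0.51 for Ccnb1, -0.14 for Ccnb2, -0.54 for Cdk1 and -0.93 for Gpr3, MII Mos became 0.072, primary against primordial follicles in sham became 0.15 for Ccnb1 and 1.33 for Gpr3, and the difference became -1.87 for Mos. With primary NTY replicates 2 and 3 summed, Cdk1 became -0.034 in primary follicles and the difference for Mos -0.28.

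No pairing by replicate number was seen, since the correlation of same-numbered deviations was -0.063 to 0.065. With 3 libraries per group and a wide spread this does not exclude pairing. With the replicate block 0 members were called in each comparison, and the block turned Wee2 in primordial follicles to 0.22, Ccnb1 and Cdk1 in primary follicles to -2.55 and -0.69, MII Mos to 0.059, Ccnb1 in sham between stages to 5.44 and the difference for Mos to -3.63.

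On leaving out each library in turn these log2 fold changes took both signs. For NTY against sham in primordial follicles, they ran from -8.81 to 6.87 for Mos, -11.60 to 1.70 for Ccnb1, -2.69 to 7.77 for Wee2 and -8.91 to 3.10 for Gpr3. For NTY against sham in primary follicles, they ran from -3.36 to 1.58 for Ccnb1, -4.68 to 5.34 for Ccnb2, -4.60 to 2.75 for Cdk1, -3.65 to 0.48 for Wee2, -2.89 to 1.08 for Cdc25b, -11.15 to 3.48 for Gpr3 and -0.39 to 3.42 for Pde3a. For NTY against sham at MII, they ran from -0.38 to 0.27 for Mos, -0.47 to 0.052 for Ccnb1, -0.16 to 0.12 for Ccnb2, -0.65 to 0.67 for Ccnb3, -0.22 to 0.29 for Fbxo43, -0.20 to 0.25 for Wee2, -0.34 to 0.25 for Gpr3 and -0.059 to 0.35 for Pde3a. For primary against primordial follicles in sham, they ran from -2.39 to 3.12 for Ccnb1, -2.59 to 1.37 for Ccnb2, -4.49 to 0.16 for Cdk1, -1.65 to 8.98 for Wee2 and -1.88 to 11.22 for Gpr3. For primary against primordial follicles in NTY, they ran from -1.88 to 10.78 for Ccnb1, -1.34 to 5.86 for Ccnb2, -4.17 to 4.94 for Cdk1, -2.35 to 1.52 for Wee2, -0.83 to 3.13 for Cdc25b, -3.11 to 10.51 for Gpr3 and -0.40 to 5.17 for Pde3a. For the difference between the stages in NTY effect, they ran from -8.50 to 7.07 for Mos, -1.10 to 12.15 for Ccnb1, -2.16 to 7.86 for Ccnb2, -1.73 to 7.32 for Cdk1, -9.08 to 1.55 for Wee2 and -2.87 to 11.73 for Gpr3.

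The common dispersion was 3.59 in the microdissected libraries and 0.542 at MII. At the depth of the MII libraries Cdc25b in NTY was at or under the limit that a count of 0 allows.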
